A study of Mus musculus with 23 samples.

Results

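The genes described here encode the proteins of the cytosolic ribosome in mouse liver. They were chosen by symbol: Rpl or Rps followed by a number, with an optional a, x, al, l or l1, together with Rpsa, Rplp0, Rplp1 and Rplp2. Of 86 such symbols in the count table, 85 had a read in at least 1 mouse, among 20380 genes with a read and 27179 in all. They comprised 53 genes of the large and 32 of the small subunit, and 9 of the 85 carried the symbol of a ribosomal protein followed by l, al or l1, which marks a copy or relative of that gene. The remaining symbol, Rpl10l, had no read.

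Livers of 15 female mice were sampled where no tumor was seen, their mRNA was sequenced, and the study asked how loss of Icmt, the enzyme that methylates the end of prenylated proteins, alters the liver of a Braf-driven cancer model. All mice carried Alb-Cre, which the paper describes as liver-specific and used for expression of the Braf allele in hepatocytes, and trp53flx/flx alleles. The 6 Ctrl mice had WT Braf and Icmt flx/+. The 6 ABpIF/+ mice had in addition the BrafCA/+ allele, which gives BrafV600E after recombination, with Icmt flx/+, and the 3 ABpIF/F mice had BrafCA/+ with Icmt flx/flx. Ctrl livers were thus not wild type, since they too carried floxed Trp53 and 1 floxed Icmt copy, and the genotype field of both Braf groups reads BRAF +/+ where the design text names the BrafCA/+ allele. The labels give no age for single mice. They give 1 strain description for 5 Ctrl mice and another for Ctrl replicate 2 and all Braf mice, so strain label and Braf genotype can be told apart in 1 Ctrl mouse only. Total counts ran from 24742910 to 32262649 per mouse. Icmt itself stood at 27.8 to 34.7 CPM, counts scaled by effective library size, in Ctrl, at 27.8 to 37.4 CPM in ABpIF/+ and at 15.7, 16.6 and 15.2 CPM in ABpIF/F, in the direction the labels give.

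Each ribosome is built from ribosomal RNA and 1 copy of most ribosomal proteins, and the genes of these proteins are among the most strongly transcribed in a hepatocyte, which makes the plasma proteins of the body. The mRNAs of ribosomal proteins start with a C followed by an unbroken run of pyrimidines, the 5′ terminal oligopyrimidine (TOP) tract, through which mTORC1 and the RNA-binding protein LARP1 set their translation. Their transcription is promoted by MYC, and ribosomal proteins made in excess are degraded, so that mRNA levels do not give the number of ribosomes.

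Start sites of members that carry the results are shown to let the TOP tract be read directly. Each line gives 15 bases before and 15 bases from a RefSeq start site, on build GRCm38.p6, 5′ to 3′ on the gene's strand, with a C at the start and the run of at least 4 pyrimidines after it in capitals. The first 5 have the pattern and the other 6 do not at that start, and they include members with high values below (Rpl12, Rpl22l1) and with low ones (Rps27l, Rpl7l1, Rpl36al).
Rps6, chr4:86857353-86857382, minus strand: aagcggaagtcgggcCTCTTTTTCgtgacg
Rps10, chr17:27635230-27635259, minus strand: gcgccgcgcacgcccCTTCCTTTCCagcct
Rps27, chr3:90213634-90213663, minus strand: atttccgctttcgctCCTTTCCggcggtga
Rpl14, chr9:120571502-120571531, plus strand: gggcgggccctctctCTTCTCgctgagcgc
Rpl35, chr2:39005117-39005146, minus strand: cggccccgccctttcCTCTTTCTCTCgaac
Rpl12, chr2:32961697-32961726, plus strand: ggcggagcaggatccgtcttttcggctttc
Rps2, chr17:24720048-24720077, plus strand: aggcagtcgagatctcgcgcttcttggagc
Rpl22l1, chr3:28805493-28805522, plus strand: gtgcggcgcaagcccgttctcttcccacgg
Rps27l, chr9:66946071-66946100, plus strand: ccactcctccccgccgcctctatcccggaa
Rpl7l1, chr17:46782642-46782671, minus strand: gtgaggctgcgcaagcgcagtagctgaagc
Rpl36al, chr12:69184053-69184082, minus strand: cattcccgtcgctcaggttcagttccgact

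RefSeq promoters of GRCm38.p6, from 250 bases before to 50 bases after a start, matched 63 of the 85 members. The TOP pattern stood at a listed start in 14 of the 63 (22.2%), against 3.01% of all 27025 genes in the table. The letters CGGAAG occurred on either strand of the promoter in 66.7% of the 63 members and in 18.8% of all genes, and AAGATGGC in 9.52% and 3.19%. The search took the listed start as it is, and in the Rpl12, Rpl22l1 and Rps27l lines a pyrimidine run begins 1 base after it. Lack of the pattern at a listed start therefore does not show that a TOP tract is lacking. Among members without a like symbol, the median log2 fold change in ABpIF/+ against Ctrl was 1.52 for the 13 with the TOP pattern and 1.43 for the 42 without it. It was 1.43 for the 38 with CGGAAG and 1.55 for the 17 without.

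Reads on the 85 genes made up a larger share of each ABpIF/+ library than of any other. In Ctrl the lowest, median and highest shares were 1.05, 1.13 and 1.71% (mean 1.26% ± 0.277, SD, n = 6). ABpIF/+ mice had 2.51, 3.04 and 3.66% (3.03% ± 0.439, SD, n = 6), and the 3 ABpIF/F mice had 1.37, 1.60 and 1.89% (1.62% ± 0.262, SD, n = 3). Every ABpIF/+ mouse stood above every mouse of the other groups, and the ABpIF/F mice lay within or just above the range of Ctrl. The highest Ctrl value, 1.71%, belonged to replicate 2, the Ctrl mouse with the strain label of the Braf mice, and replicate 1 followed with 1.51%. The other 4 Ctrl mice had 1.05 to 1.18%. In a liver sample, fewer cells of a type and less RNA per cell cannot be told apart, and a share can move through the other genes too: the 10 most abundant genes took 19.3 to 22.5% of counts in Ctrl, 26.6 to 32.6% in ABpIF/+ and 27.97 to 33.01% in ABpIF/F.

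**Figure D1:**
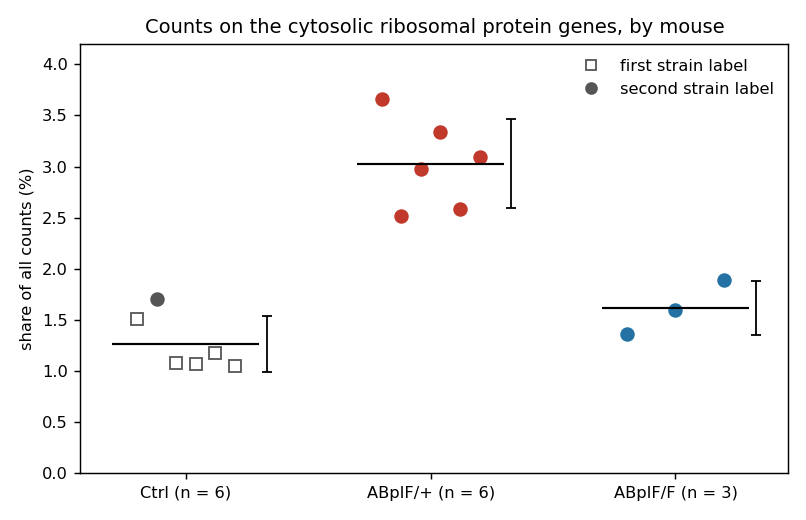
The share of all counts (%) that fell on the 85 ribosomal protein genes, with 1 point per mouse, the group mean as a line and its SD as bars. Open squares are the 5 Ctrl mice with the first strain label and filled circles the mice with the second, and all 6 ABpIF/+ points, from 2.51 to 3.66%, lie above the other 9.

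Of the 85 genes, 4 had under 1 CPM on average: Rpl39 with 21 reads in all mice together, Rpl39l with 2, Rpl32l with 15 and Rpl3l with 47. Rpl39 encodes a small protein of the exit tunnel that ribosomes need, and its near absence from the counts was not examined further. Rpl3l replaces Rpl3 in heart and skeletal muscle. No fold change is given for these 4. The other 81 all had at least 10 CPM. By CPM the highest were Rps2 with a mean of 734, Rpsa with 713 and Rplp0 with 670. Per kilobase of annotated exon, the scale on which genes can be compared, the highest mean levels in Ctrl were those of Rps2 with 489, Rpl10 with 463 and Rplp1 with 433 CPM per kilobase. In ABpIF/+ they were those of Rps6 with 1181, Rps18 with 1095 and Rplp1 with 1028, and in ABpIF/F those of Rps6 with 532, Rpl10 with 508 and Rps18 with 475 CPM per kilobase. These levels depend on the exon length used for each gene.

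In ABpIF/+ against Ctrl, ribosomal protein genes of both subunits rose together. At an adjusted p under 0.05 in edgeR's quasi-likelihood test, 77 of the 85 rose and 1, Rpl7l1, fell, where 17.0% of all genes with a read rose and 17.0% fell. Among the 7830 genes of at least 10 CPM, 25.3% rose. At an adjusted p under 0.01 and a difference of at least 1 log2 unit, 75 members rose, against 6.26% of all genes. In 74 members every ABpIF/+ mouse stood above every Ctrl mouse, which held for 10.4% of all genes. The median log2 fold change of the members was 1.47, a 2.78-fold difference, and that of all genes with a read was 0. With the second strain label alone, which leaves 1 Ctrl mouse, 35 members rose at an adjusted p under 0.05 (6.07% of all genes) and 6 by the stricter rule (2.56%), with a median of 0.91. In 72 of the 75 members without a like symbol that had at least 1 CPM, every ABpIF/+ mouse was above that Ctrl mouse, against 24.6% of all genes.

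Members without a like symbol were alike in size of change. All 75 that had at least 1 CPM rose, with log2 fold changes from 0.83 to 2.06, a median of 1.49 and an SD over genes of 0.24. The 45 of the large subunit had a median of 1.47 (0.93 to 2.06) and the 30 of the small subunit 1.52 (0.83 to 1.99). These genes are counted in the same libraries and are not replicates of each other.

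**Figure D2:**
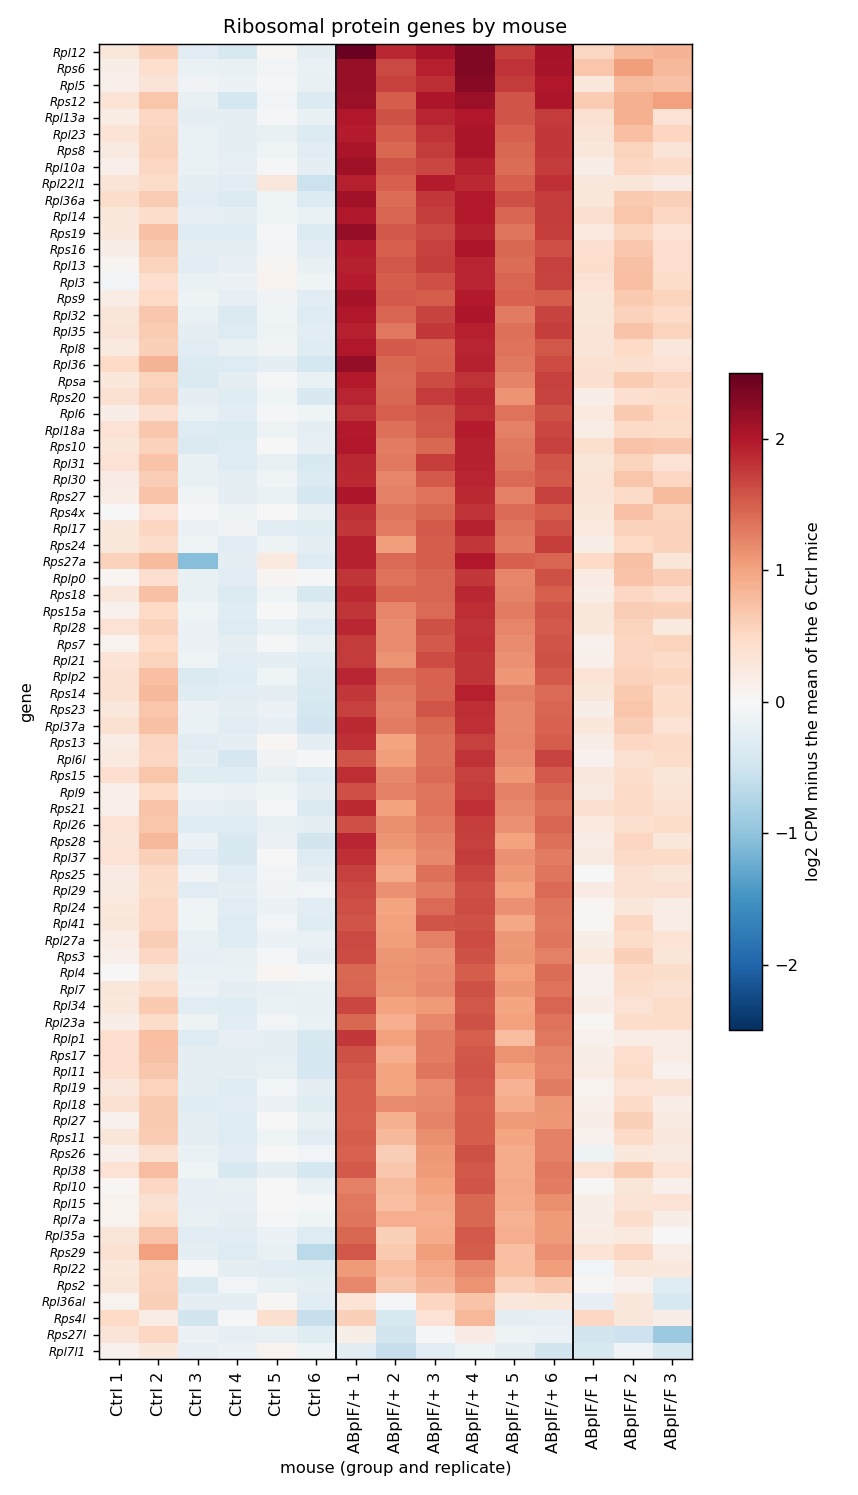
Each row is 1 ribosomal protein gene and each column 1 mouse, named by group and replicate, with the colour giving log2 CPM minus the mean of the 6 Ctrl mice, for 80 of the 81 members of at least 1 CPM. The 6 ABpIF/+ columns are red over nearly all rows, while rows of genes such as Rps27l, Rpl7l1 and Rpl36al stay pale there.

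Of the large subunit, Rpl12, which with the stalk base forms the site where elongation factors dock, had the largest difference. Its level was 80.6, 99.7 and 162 CPM in Ctrl (lowest, median, highest), 351, 447 and 592 CPM in ABpIF/+ and 153, 187 and 192 CPM in the 3 ABpIF/F mice. All ABpIF/+ mice were above all others, and ABpIF/F overlapped the top of Ctrl. The log2 fold change in ABpIF/+ against Ctrl was 2.06 ± 0.17 (SE, adjusted p = 6.65e-09).

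Rpl5, which binds 5S rRNA and with Rpl11 can hold back Mdm2, the ubiquitin ligase of p53, came next. Its level was 195, 210 and 277 CPM in Ctrl, 719, 840 and 1066 CPM in ABpIF/+ and 266, 382 and 366 CPM in ABpIF/F. The lowest ABpIF/+ mouse was far above the highest Ctrl mouse, and the log2 fold change was 1.97 ± 0.15 (SE, adjusted p = 1.25e-09). Its partner Rpl11 rose less, by 1.24 ± 0.18 (SE, adjusted p = 1.21e-05). Rpl3, which reaches into the peptidyl transferase center, had 230, 243 and 345 CPM in Ctrl and 711, 809 and 1005 CPM in ABpIF/+, without overlap, and a log2 fold change of 1.68. Rpl10, which is added last in the maturation of the subunit, had 356, 389 and 586 CPM in Ctrl and 711, 908 and 1221 CPM in ABpIF/+, a log2 fold change of 1.14.

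The smallest rises of the large subunit were those of Rpl22, Rpl35a, Rpl7a (1.09) and Rpl15 (1.10). Rpl22, an RNA-binding protein on the outer face of the subunit, had 80.3, 91.1 and 146 CPM in Ctrl and 165, 197 and 227 CPM in ABpIF/+, with no overlap and a log2 fold change of 0.93 ± 0.15 (SE, adjusted p = 3.86e-05). For Rpl35a (1.06) and Rpl38 (1.14) the lowest ABpIF/+ mouse lay below Ctrl replicate 2.

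The ribosomal stalk, which recruits elongation factors, is built on Rplp0 with dimers of Rplp1 and Rplp2. Rplp0 had 296, 358 and 482 CPM in Ctrl, 833, 1036 and 1246 CPM in ABpIF/+ and 416, 587 and 552 CPM in ABpIF/F. Rplp1 had 156, 178 and 348 CPM in Ctrl, 350, 511 and 707 CPM in ABpIF/+ and 221, 233 and 234 CPM in ABpIF/F. For Rplp1 the highest Ctrl mouse nearly reached the lowest ABpIF/+ mouse, while Rplp0 left a wide gap. The log2 fold changes in ABpIF/+ against Ctrl were 1.53 ± 0.15 (SE, adjusted p = 6.93e-08) for Rplp0, 1.25 ± 0.20 (SE, adjusted p = 4.54e-05) for Rplp1 and 1.48 ± 0.19 (SE, adjusted p = 2.5e-06) for Rplp2.

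Of the small subunit, Rps6, whose phosphorylation by S6 kinase is the usual readout of mTORC1 activity, differed most. Its level was 227, 239 and 347 CPM in Ctrl, 809, 1033 and 1284 CPM in ABpIF/+ and 417, 533 and 450 CPM in ABpIF/F. The 3 groups did not overlap at all, and the log2 fold change was 1.99 ± 0.15 (SE, adjusted p = 1.46e-09) in ABpIF/+ against Ctrl. Its gene lies at chr4:86854660-86857412, and its start line above has a run of 9 pyrimidines. Rps12, a protein of the head of the subunit, had 49.3, 61.5 and 108 CPM in Ctrl, 191, 272 and 300.4 CPM in ABpIF/+ and 104, 124 and 137 CPM in ABpIF/F, with a log2 fold change of 1.87 ± 0.18 (SE, adjusted p = 7.41e-08).

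Rpsa, which is also known as the laminin receptor precursor, had 284, 338 and 536 CPM in Ctrl, 857, 1163 and 1444 CPM in ABpIF/+ and 480.2, 567 and 529 CPM in ABpIF/F. Its ABpIF/+ values stood apart from all others, with a log2 fold change of 1.61 ± 0.17 (SE, adjusted p = 1.33e-07). Rps2, near the entry of the mRNA channel, had the smallest rise of the 75. It had 427, 501 and 822 CPM in Ctrl and 823, 934 and 1268 CPM in ABpIF/+, so that the groups touched without overlap, and the log2 fold change was 0.83 ± 0.17 (SE, adjusted p = 0.000637). Rps29, a short zinc-binding protein, had 37.8, 52.5 and 123 CPM in Ctrl and 95.4, 129 and 178 CPM in ABpIF/+. These groups overlapped through Ctrl replicate 2, and its log2 fold change of 1.04 ± 0.25 had an adjusted p of 0.00553 in edgeR's test.

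**Figure D3:**
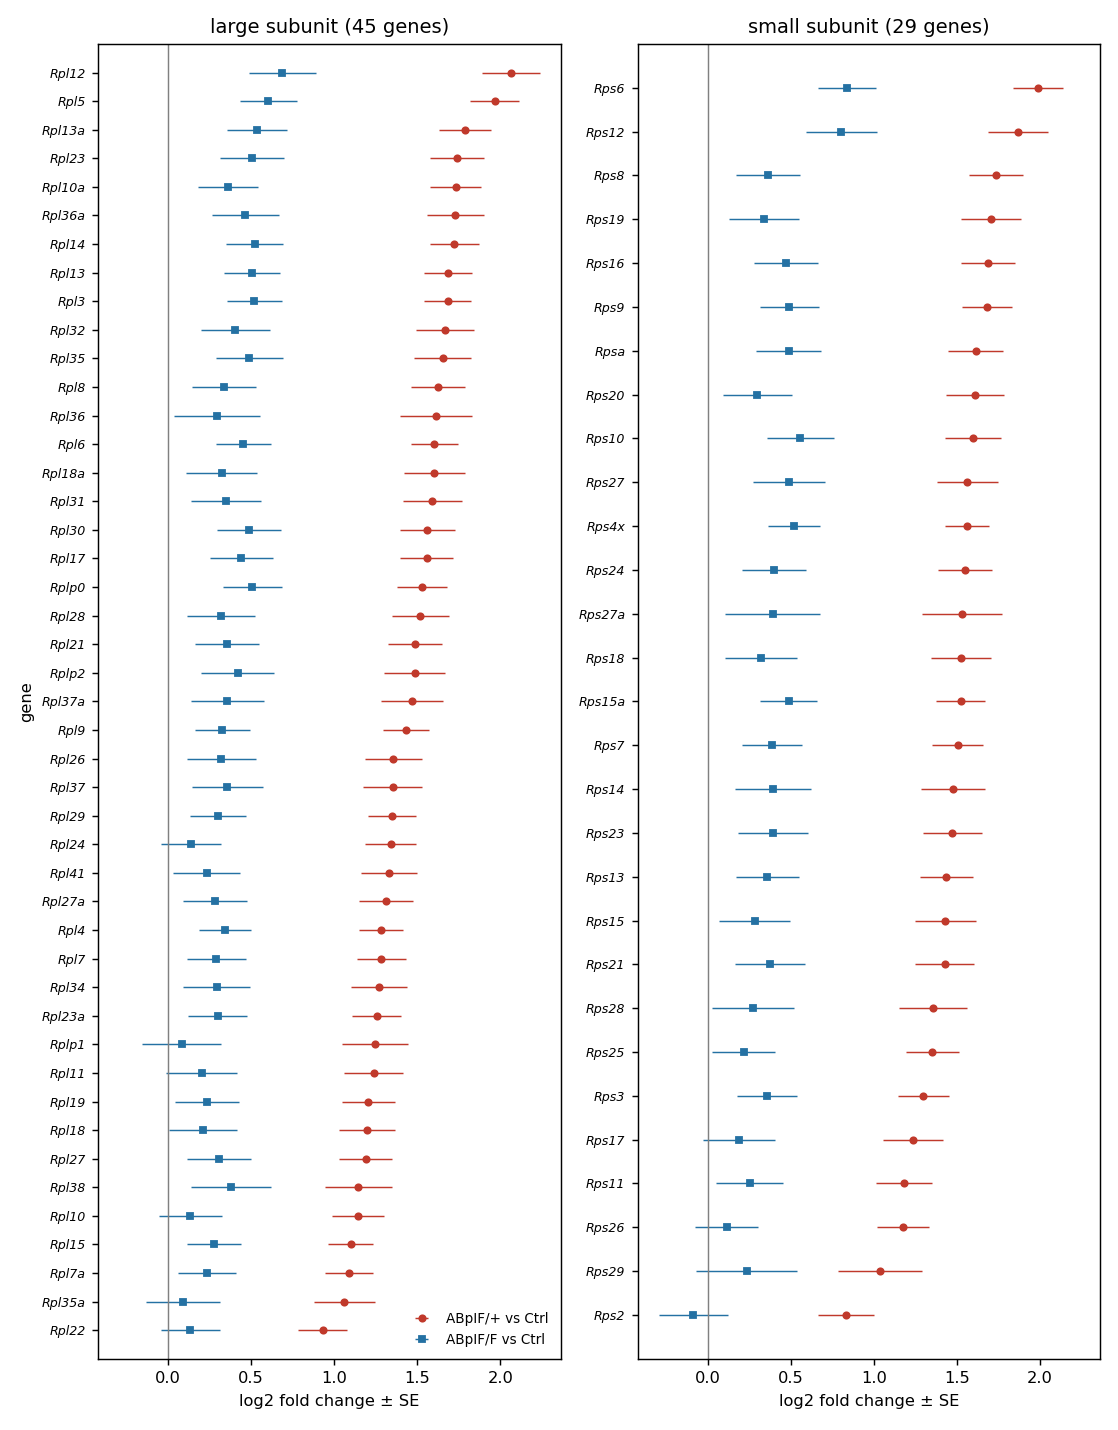
log2 fold changes with SE as bars for 74 of the 75 members without a like symbol and with at least 1 CPM, large subunit left and small subunit right, against Ctrl in ABpIF/+ (circles) and ABpIF/F (squares). Values of ABpIF/+ run from 0.83 (Rps2) to 2.06 (Rpl12), and those of ABpIF/F lie nearer 0, from -0.09 (Rps2) to 0.84 (Rps6).

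ABpIF/F mice, with both Icmt copies floxed, lay much nearer to Ctrl. At an adjusted p under 0.05, 9 members rose (Rpl3, Rpl5, Rpl12, Rpl13, Rpl13a, Rpl14, Rps4x, Rps6 and Rps12) where 12.9% of all genes with a read and 12.2% of those of at least 10 CPM rose. Rps27l was the 1 member that fell, against 9.82% of all genes. No member passed the stricter rule, which 6.06% of all genes passed upwards. The count of 9 of 85 was below the background. Of the 85, 78 had a log2 fold change above 0, as did 11207 of the 20380 genes with a read and 384 of the 1221 genes of at least 100 CPM. The median of the members was 0.34, against 0.09 for all genes with a read and -0.34 for the 1221. Members share the libraries and move together, so the 78 are not separate observations. A count near the background is not a result about the members.

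Rps6 was the member with the largest difference here, at 0.84 ± 0.17 (SE, adjusted p = 0.00122), and the only one in which every ABpIF/F mouse stood above every Ctrl mouse, as in 12.4% of all genes. Rps12 followed with 0.80 ± 0.21 (SE, adjusted p = 0.00941), then Rpl12 with 0.69 ± 0.20 (SE, adjusted p = 0.0176) and Rpl5 with 0.61 ± 0.17 (SE, adjusted p = 0.0146). Rplp0 had 0.51 (adjusted p = 0.0536) and Rpsa 0.49 (adjusted p = 0.0991), neither past the threshold. At the other end of the members without a like symbol, Rps2 had -0.09 and Rplp1 0.08. Both this comparison and that of ABpIF/+ use the same 6 Ctrl mice, so their values for a gene are not independent.

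This comparison rested on which Ctrl mice were counted. Ctrl replicate 2 had the highest Ctrl value in 75 of the 75 members without a like symbol, and the share of all genes for which this held was not counted. Every ABpIF/F mouse was above the 5 Ctrl mice of the first strain label in 30 of the 75, against 13.7% of all genes, and below Ctrl replicate 2 in 48, against 28.1%. Without Ctrl replicate 2, 36 members rose at an adjusted p under 0.05 (12.5% of all genes). Only 2 rose without ABpIF/F replicate 2 or 3, 4 without Ctrl replicate 6 or ABpIF/+ replicate 5, and 5 without Ctrl replicate 3 or 4. In the fits with 2, 4 or 5 risen members, 7.78 to 11.8% of all genes rose. These counts of the 85 members were thus below the background. Rps6 remained past the threshold with any 1 mouse left out, while Rpl12, Rpl5 and Rps12 did not without ABpIF/F replicate 3. With the second strain label alone, which leaves 1 Ctrl mouse, no member rose, against 4.68% of all genes, and the median was -0.24. Strain label and group therefore cannot be told apart for ABpIF/F.

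Mice of 1 group differed from each other by a step common to the whole family. Relative to the Ctrl mean, the median log2 level over the 75 members was 0.27, 0.59, -0.21, -0.26, -0.10 and -0.27 in Ctrl replicates 1 to 6. It was 1.82, 1.22, 1.45, 1.80, 1.21 and 1.52 in ABpIF/+ and 0.24, 0.54 and 0.42 in ABpIF/F. In ABpIF/+, replicate 1 or replicate 4 had the highest value in every one of the 75 members (37 and 38), and replicate 2 or 5 the lowest (34 and 41). Replicate 2 of ABpIF/F was its highest mouse in 63 members and replicate 1 its lowest in 63. How often these mice were highest or lowest of their group over all genes was not counted.

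Against ABpIF/F, ABpIF/+ mice had higher levels across the family. At an adjusted p under 0.05, 77 members rose and none fell, where 9.95% of all genes with a read and 20.9% of those of at least 10 CPM rose and 14.3% fell. By the stricter rule 59 rose, against 2.35% of all genes, and in 78 every ABpIF/+ mouse was above every ABpIF/F mouse, against 12.2%. The median log2 fold change was 1.08, a 2.12-fold difference, and that of all genes with a read was -0.05. Of the 75 members without a like symbol, 74 rose, with values from 0.77 (Rpl38) to 1.37 (Rpl12). Rps29 was the exception, with a log2 fold change of 0.80 and an adjusted p of 0.101.

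The count by the stricter rule was 35 without ABpIF/F replicate 1 (2.34% of all genes), 20 with total counts as the scale (1.40%), 16 with totals that left out the 10 most abundant genes (1.35%) and 13 with a gene length trend removed (1.85%). Rpl12 had a log2 fold change of 1.37 ± 0.22 (SE, adjusted p = 0.000124), Rpl5 1.36 ± 0.19 (SE, adjusted p = 2.68e-05), Rps6 1.15 ± 0.19 (SE, adjusted p = 0.000155) and Rps12 1.06 ± 0.23 (SE, adjusted p = 0.00195). Rps19, a protein needed for the maturation of 18S rRNA, had 99.7, 123 and 107 CPM in ABpIF/F against 213, 271 and 383 CPM in ABpIF/+, with no overlap and a log2 fold change of 1.36. The strain label is the same for all mice of this comparison.

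Members with a like symbol behaved in several ways. Of the 9, 6 had at least 1 CPM, and each was set beside the member whose name it carries. Rps27l, at chr9:66946086-66949514, encodes a near relative of Rps27 and is known as a gene that p53 induces. Rps27 had 40.3, 49.8 and 89.2 CPM in Ctrl, 130, 158 and 221 CPM in ABpIF/+ and 67.9, 75.7 and 93.7 CPM in ABpIF/F. Rps27l had 70.9, 78.0 and 124 CPM in Ctrl, 64.0, 82.1 and 100.7 CPM in ABpIF/+ and 63.9, 61.1 and 46.1 CPM in ABpIF/F.

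Rps27 thus rose in ABpIF/+ (log2 fold change 1.56) while Rps27l overlapped Ctrl (-0.09 ± 0.15, adjusted p = 0.908). In ABpIF/F, Rps27l fell below every Ctrl mouse, with a log2 fold change of -0.65 ± 0.19 (SE, adjusted p = 0.0169), and it was the only member to do so. That call was lost without ABpIF/F replicate 3 (-0.52). The mean log2 ratio of Rps27l to Rps27 was 0.68 in Ctrl, -0.97 in ABpIF/+ and -0.47 in ABpIF/F. The difference of the ratio was -1.65 in ABpIF/+ against Ctrl (exact permutation test, two-sided, p = 0.00216, Benjamini-Hochberg adjusted 0.00778 over 18 tests) and -1.16 in ABpIF/F against Ctrl (exact p = 0.0238, adjusted 0.0357). Between ABpIF/+ and ABpIF/F it was -0.49 (exact p = 0.0952). With 6 against 6 mice the smallest p is 0.00216, and with 6 against 3 it is 0.0238. The 18 tests are 6 pairs in 3 comparisons. They were chosen after the values were seen, and each ratio contains the partner's difference, which was already known. Their p-values, here and for the pairs below, thus describe the separation of these mice and add no independent support.

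Rpl22l1 went the other way. It had 14.6, 22.1 and 29.2 CPM in Ctrl, 59.9, 76.5 and 83.1 CPM in ABpIF/+ and 26.0, 26.4 and 24.5 CPM in ABpIF/F. ABpIF/+ stood far above both other groups, which overlapped. Its log2 fold change in ABpIF/+ was 1.73 ± 0.15 (SE, adjusted p = 1.33e-08) against Ctrl and 1.51 ± 0.19 (SE, adjusted p = 1.56e-05) against ABpIF/F, the largest of all members of at least 1 CPM in the latter comparison. Rpl22, which is known to repress Rpl22l1, rose less (0.93), and the log2 ratio of Rpl22l1 to Rpl22 was higher by 0.80 in ABpIF/+ than in Ctrl (exact permutation p = 0.00216, adjusted 0.00778). In ABpIF/F against Ctrl the ratio differed by 0.10 (exact p = 0.595).

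Rpl7l1, a nucleolar relative of Rpl7 that acts in the making of the large subunit, was the only member to fall in ABpIF/+. It had 47.3, 54.1 and 65.3 CPM in Ctrl, 36.6, 45.0 and 50.001 CPM in ABpIF/+ and 41.7, 51.4 and 42.0 CPM in ABpIF/F. The groups overlapped, and the log2 fold change in ABpIF/+ was -0.33 ± 0.11 (SE, adjusted p = 0.0301). That call was lost without ABpIF/+ replicate 2 or 6 or without Ctrl replicate 1, 2 or 5, with values from -0.27 to -0.31 then. Rpl7 rose from 231, 242 and 372 CPM to 574, 660 and 814 CPM (log2 fold change 1.28), and the log2 ratio of Rpl7l1 to Rpl7 was lower by 1.62 (difference -1.62, exact permutation p = 0.00216, adjusted 0.00778).

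Rpl36al, at chr12:69182731-69184083, encodes a protein nearly identical to that of Rpl36a. Rpl36a rose from 44.6, 49.9 and 87.6 CPM in Ctrl to 150, 191 and 244 CPM in ABpIF/+ (log2 fold change 1.73). Rpl36al had 99.3, 113 and 182 CPM in Ctrl, 118, 151 and 197 CPM in ABpIF/+ and 104, 145 and 92.1 CPM in ABpIF/F. Its groups overlapped, with a log2 fold change of 0.34 ± 0.16 (adjusted p = 0.136), and the difference of the ratio to Rpl36a was -1.41 (exact permutation p = 0.00216, adjusted 0.00778) in ABpIF/+ and -0.62 (exact p = 0.0238, adjusted 0.0357) in ABpIF/F, each against Ctrl.

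Within the second strain label, with 1 Ctrl mouse and no test, the ratio differences in ABpIF/+ against Ctrl were -1.44 for Rps27l, -1.43 for Rpl7l1, -1.38 for Rpl36al, -1.21 for Rps4l and 0.91 for Rpl22l1.

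The last pairs involve genes not annotated as protein-coding. Rps4l, annotated as a transcript without an open reading frame, had 7.76, 12.2 and 16.2 CPM in Ctrl, 8.71, 12.5 and 20.5 CPM in ABpIF/+ and 16.4, 14.0 and 13.0 CPM in ABpIF/F, so all groups overlapped (log2 fold change 0.17 in ABpIF/+ against Ctrl, adjusted p = 0.772). Rps4x, its partner, had 105, 116 and 154 CPM in Ctrl and 301, 332 and 421 CPM in ABpIF/+ (1.56). Rpl6l, a processed pseudogene by annotation, followed Rpl6: it had 9.62, 12.3 and 18.3 CPM in Ctrl and 26.5, 35.6 and 45.2 CPM in ABpIF/+ (1.44, adjusted p = 2.23e-07), and its log2 ratio to Rpl6 differed by -0.18 (exact permutation p = 0.0606, adjusted 0.0839). Coding sequences were 87.7% identical between Rpl36a and Rpl36al, 66.9% between Rpl22 and Rpl22l1, 60.0% between Rps27 and Rps27l and 50.1% between Rpl7 and Rpl7l1.

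**Figure D4:**
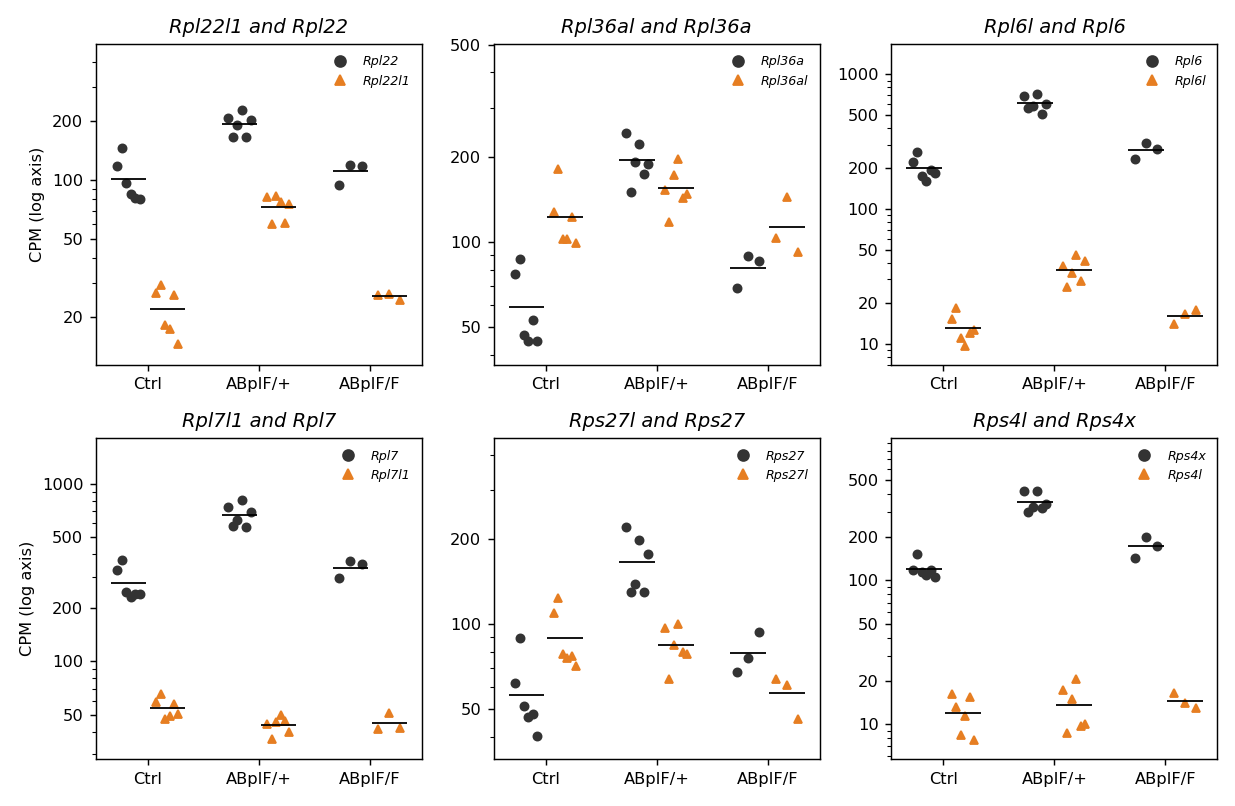
CPM on a log axis for each of the 6 like members (triangles) and its partner (circles), 1 point per mouse in each group. Partners rise from Ctrl to ABpIF/+ in all 6 panels, Rpl22l1 rises with and beyond Rpl22 (log2 ratio higher by 0.80), and Rps27l, Rpl7l1, Rpl36al and Rps4l show no such rise (log2 ratio differences of -1.65, -1.62, -1.41 and -1.41).

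The symbol rule leaves out genes whose proteins also sit in the ribosome. In ABpIF/+ against Ctrl, Rps3a1 had a log2 fold change of 1.36, Fau, which encodes a ubiquitin-like protein fused to a small-subunit protein, 1.19, and Rack1, the scaffold on the head of the small subunit, 1.60. All 3 rose, and none of them passed in ABpIF/F against Ctrl.

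Ribosomal protein genes have many near copies in the genome, and reads from copies and genes can be confused where they share letters. Annotated transcripts were cut into 50-base stretches. Of the 75 members without a like symbol that had at least 1 CPM, 43 shared at least 50% with other genes. The median of their log2 fold changes in ABpIF/+ against Ctrl was 1.44. In the pairs above, Rps27 shared 98.65%, Rpl36a 85.48%, Rpl36al 63.31%, Rpl22l1 57.26% and Rpl7 53.32%. Rpl22 shared 24.47%, Rps27l 13.69% and Rpl7l1 12.21%, and the part of sharing in the ratios was not tested. Rps3, Rps20 and Rpl8, which shared under 10%, rose by 1.30, 1.61 and 1.62 on the log2 scale. Of 22 annotated ribosomal protein pseudogenes with a read, 7 rose and none fell in ABpIF/+ against Ctrl (median 1.32). Of all genes, 17.0% rose and 17.0% fell there. Among the 7 were Rpl17-ps10 (1.59, adjusted p = 4.54e-08) and Rpl34-ps1 (1.49, adjusted p = 5.14e-06). Their summed level was 20.5 to 36.6 CPM in Ctrl, 60.4 to 95.6 CPM in ABpIF/+ and 28.1 to 38.03 CPM in ABpIF/F. Counts of a pseudogene and its parent cannot be told apart with certainty. In ABpIF/F against Ctrl 1 of the 22, Rpl31-ps11, fell (adjusted p = 0.0235), against 9.82% of all genes. In ABpIF/+ against ABpIF/F 6 rose, against 9.95%.

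Members are short, and gene length moved with the comparisons. Other genes of at least 10 CPM with 500 to 1000 bases of exon had median log2 fold changes of -0.03 in ABpIF/+ against Ctrl, -0.41 in ABpIF/F against Ctrl and 0.38 in ABpIF/+ against ABpIF/F (n = 282). The 34 members of that length had 1.36, 0.30 and 1.07. With a length trend removed from the counts, the medians over all members were 1.35, 0.55 and 0.74. At an adjusted p under 0.05, 77, 64 and 75 members rose then, against 17.5, 14.9 and 9.88% of all genes. The number of calls in ABpIF/F against Ctrl thus depended on the length trend.

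Other mRNAs with a TOP tract moved with the members. Of 19 such genes of translation that are no members, 18 rose in ABpIF/+ against Ctrl, where 17.0% of all genes rose. In ABpIF/F against Ctrl 2 rose (12.9% of all genes), and in ABpIF/+ against ABpIF/F 15 rose (9.95%). The medians were 1.10, 0.23 and 0.94. The translation factor gene Eef1b2 had a log2 fold change of 1.46 (adjusted p = 9.32e-08) and the histone chaperone gene Nap1l1 1.57 (adjusted p = 1.92e-09) in ABpIF/+ against Ctrl. Hnrnpa1 (0.68, adjusted p = 0.000367) and Nap1l1 (0.63, adjusted p = 0.00272) were the 2 that rose in ABpIF/F. The elongation factor gene Eef2 rose in ABpIF/+ against ABpIF/F (1.03, adjusted p = 0.000248).

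Genes that make ribosomes had medians nearer 0 than the members in each comparison. Of 45 genes of ribosome biogenesis and RNA polymerase I, 22 rose and none fell in ABpIF/+ against Ctrl (median 0.35). Of all genes, 17.0% rose and 17.0% fell there. Among the 22 was Utp14a of the small-subunit processome (1.06, adjusted p = 3.18e-05). In ABpIF/F against Ctrl none rose and 6 fell (median -0.15), where 12.9% of all genes rose and 9.82% fell. Among the 6 were Nop10 (-0.82, adjusted p = 0.00196), a protein of the particles that turn uridine into pseudouridine, and Nmd3 (-0.62, adjusted p = 0.00374), which exports the large subunit. In ABpIF/+ against ABpIF/F 26 rose (median 0.49), where 9.95% of all genes rose. Among the 26 were Rrp12 (1.06, adjusted p = 0.000969) and Nolc1 (1.02, adjusted p = 0.00295).

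Of 25 genes that signal to the ribosome, 5 rose and 7 fell in ABpIF/+ against Ctrl, where 17.0% of all genes rose and 17.0% fell. In ABpIF/F against Ctrl 2 rose and 5 fell, against 12.9% and 9.82% of all genes. In ABpIF/+ against ABpIF/F 6 rose and 4 fell, against 9.95% and 14.3%. The medians were 0.11, -0.07 and 0.14. The 7 and 5 that fell against Ctrl and the 6 that rose against ABpIF/F were above these shares, and the other counts were near or below them. Counts near these shares are not a result about the list, and no test over the list was run. The genes named next were picked by adjusted p. Myc, the transcription factor that promotes ribosomal genes, rose in ABpIF/+ (2.51, adjusted p = 0.00108), and Eef2k, the kinase that halts elongation, fell (-1.49, adjusted p = 3.33e-05). Mknk2, a kinase of the cap-binding protein eIF4E, fell in ABpIF/F against Ctrl (-1.19, adjusted p = 0.0015) and was higher in ABpIF/+ than in ABpIF/F (1.56, adjusted p = 0.000176). Pdcd4, an inhibitor of initiation, was lower in ABpIF/+ than in ABpIF/F (-1.09, adjusted p = 0.000367).

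The proteins of the mitochondrial ribosome are encoded by separate nuclear genes. Of 78 with a read, 5 rose and 13 fell in ABpIF/+ against Ctrl (median -0.08), where 17.0% of all genes rose and 17.0% fell. In ABpIF/F against Ctrl none rose and 33 fell (median -0.48), against 12.9% and 9.82% of all genes. In ABpIF/+ against ABpIF/F 20 rose and none fell (median 0.34), against 9.95% and 14.3%. Of the 7830 genes of at least 10 CPM, 953 rose and 1688 fell in ABpIF/F against Ctrl. In ABpIF/+ against ABpIF/F, 1636 of them rose and 847 fell. Other genes of that level with 500 to 1000 bases of exon had medians of -0.41 and 0.38 in these comparisons, near those of the list. The part of level and length in the list's values was not tested. Mrpl1 (-0.83, adjusted p = 1.71e-06) was among those that fell in ABpIF/+, and Mrpl15 (-1.01, adjusted p = 0.000148) in ABpIF/F.

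**Figure D5:**
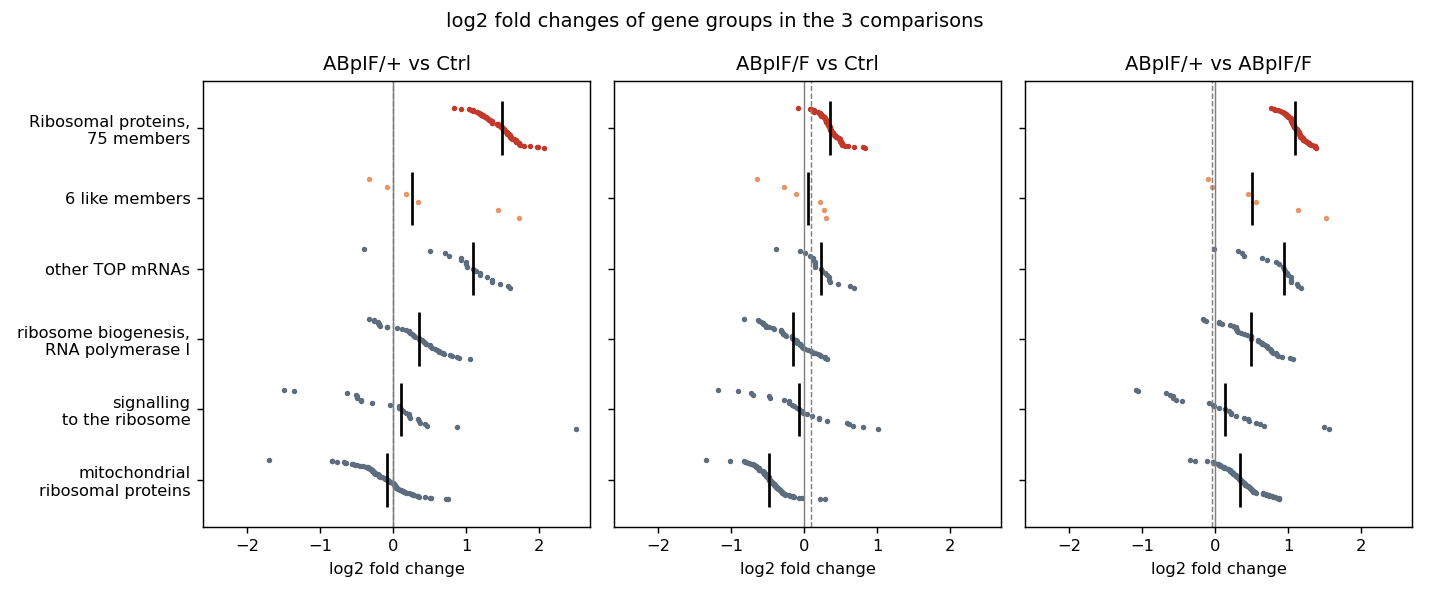
log2 fold changes of gene groups in the 3 comparisons, with 1 point per gene, a black line at each group's median and a dashed line at the median of all genes with a read. The 75 members without a like symbol (median 1.49 in ABpIF/+ against Ctrl) lie right of the mitochondrial ribosomal proteins (-0.08) and of ribosome biogenesis (0.35).

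Markers of cell types differed between the groups too, and their part in the members' levels was not tested. Of all genes with a read, 17.0% rose and 17.0% fell in ABpIF/+ against Ctrl. The shares were 12.9% and 9.82% in ABpIF/F against Ctrl, and 9.95% and 14.3% in ABpIF/+ against ABpIF/F. In ABpIF/+ against Ctrl, 6 of 8 macrophage markers, 5 of 8 T and B lymphocyte markers, 3 of 6 endothelial markers and 7 of 8 stellate cell and fibroblast markers fell, and no gene of these lists rose. Summed lymphocyte markers ran from 3.74 to 6.89 CPM in Ctrl, 0.766 to 2.91 CPM in ABpIF/+ and 5.54 to 13.6 CPM in ABpIF/F, and stellate cell markers from 214 to 281, 58.5 to 126 and 239 to 387.1 CPM. Summed hepatocyte markers ran from 107400 to 142400 CPM in Ctrl, 180700 to 250100 CPM in ABpIF/+ and 132900 to 229200 CPM in ABpIF/F, with 5 of 10 risen and 3 fallen in ABpIF/+ against Ctrl and 4 risen and 3 fallen in ABpIF/F against Ctrl. In ABpIF/F against Ctrl, 5 of 6 cholangiocyte and 5 of 5 neutrophil markers rose. In ABpIF/+ against ABpIF/F all 6 cholangiocyte, 7 macrophage, 6 lymphocyte, 4 neutrophil, 3 endothelial and all 8 stellate cell markers were lower, and 3 hepatocyte markers were higher. All 10 hepatocyte markers, Alb among them, had reads in every mouse, the neutrophil marker Ly6g was at 0 in all Ctrl mice, and the lymphocyte markers Cd3d, Cd79a and Ms4a1 were at 0 in at least 1 ABpIF/+ mouse. Of 4 red blood cell markers 1 rose in ABpIF/+ against Ctrl. Of 7 proliferation genes 5 fell in ABpIF/+ against Ctrl, against 17.0% of all genes. Their summed levels were 41.4 to 50.4 CPM in Ctrl, 23.1 to 34.6 CPM in ABpIF/+ and 35.2 to 48.3 CPM in ABpIF/F. The cell types that these reads came from are not known, and a tie to the members was not tested.

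Clock genes also moved with a group. Of 14, 2 rose and 1 fell in ABpIF/+ against Ctrl, where 17.0% of all genes rose and 17.0% fell. In ABpIF/F against Ctrl 1 rose and 8 fell, against 12.9% and 9.82% of all genes. In ABpIF/+ against ABpIF/F 9 rose and 4 fell, against 9.95% and 14.3%. A score over them, the mean of standardised log2 levels with the genes of the opposite phase counted negative, was -0.71, -1.66 and -1.06 in the ABpIF/F mice, 0.13 to 0.62 in ABpIF/+, and 0.36 to 0.61 in 5 Ctrl mice, with Ctrl replicate 1 at -1.17. With the score as a covariate no member rose in ABpIF/F against Ctrl (median -0.015), and the median in ABpIF/+ against ABpIF/F was 1.46. Time of collection is not given in the labels, and its part in these values was not tested.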

How the data were processed

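Stranded poly(A) mRNA libraries were sequenced in paired ends by the authors. Per the submitters' processing notes and the methods, reads were aligned to mm10 with HISAT2 (given as version 2.21 in the notes) and the deposited raw counts per gene were made with featureCounts 2.0.8. Annotation, strand setting and the treatment of reads with several placements are not given in the sources used here. The 23 listed samples name 15 mice, 8 of them by 2 samples, and the table has 1 column per mouse, so libraries of 1 mouse could not be told apart. Columns were assigned by mouse names. A second table, which gave the gene symbols, held identical counts in the 10 columns that could be compared, and its other 5 columns were not used. Authors' own comparisons were not used. p-values measure the spread between mice.

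Differences were tested with edgeR 4.0.16 under R 4.3.3 (all genes kept, TMM scaling, robust quasi-likelihood fit of 3 groups in the earlier edgeR form, Benjamini-Hochberg adjustment over 27179 genes). The SE is the log2 fold change divided by the square root of its F statistic. CPM used the TMM-scaled library size. On simulated counts of 27179 genes with 200 changed in ABpIF/+ against Ctrl, the fit recovered 196 with 1 false call. DESeq2 1.42.0 served as an alternative, and Python 3.11.15 with scipy 1.17.1 and matplotlib 3.10.9 in the ratio tests and figures. Shares use raw counts. Gene positions and exon lengths came from GENCODE M21 on GRCm38 and promoters from RefSeq on GRCm38.p6.

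Members and gene lists were chosen with earlier results of these data known, so their counts are descriptions and carry no test over a list. Named members were those with a like symbol and their partners, those past the stricter rule, the extremes of each comparison, the most abundant, the stalk genes and Rpsa, and up to 3 genes of each list by adjusted p. The ratio tests, the fit without Ctrl replicates 1 and 2, and the examples Rpl11, Rpl3, Rpl35a and Rps19 were chosen after values were seen. Some genes are counted in the totals but not reported here by name.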

Additional observations from a re-analysis of the deposited data

Results flagged for a closer look

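In 7 of the 164 groups of 6 mice examined, 1 mouse lay farther from the rest than Dixon's 95% limit for 6 values allows, and chance alone flags about 1 in 20 such groups. The mouse was Ctrl replicate 2 each time, and its value was the highest of Ctrl. Its level was 586.3 CPM for Rpl10, where the next Ctrl mouse had 428.3 CPM, and 88.52 CPM for Rpl13, where the next had 63.24 CPM. For Rpl27 it was 173.5 against 118.3 CPM and for Rpl36al 182.0 against 127.9 CPM. Rps21 stood at 116.6 against 77.72 CPM, Rps4x at 153.9 against 118.8 CPM and Rps7 at 211.5 against 157.2 CPM. These genes share the library, so the 7 are not separate events. Ctrl replicate 2 is the Ctrl mouse with the strain label of the Braf mice.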

How the results depend on the processing

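The medians of the members in ABpIF/+ against Ctrl and ABpIF/+ against ABpIF/F kept their direction under every alternative run, while ABpIF/F against Ctrl did not. With the mice of 1 strain label (1 Ctrl mouse, assumed to vary like the other groups), 6 members rose by the stricter rule (2.56% of all genes) and 35 at an adjusted p under 0.05 (6.07%) in ABpIF/+ against Ctrl (median 0.91), and in ABpIF/F against Ctrl 0 rose and the median turned to -0.24, with Rpl13 at -0.055. With the clock score as a covariate 0 rose in ABpIF/F against Ctrl (4.17% of all genes, median -0.015) and the median in ABpIF/+ against ABpIF/F was 1.46. For ABpIF/F against Ctrl, the number risen at an adjusted p under 0.05 (9, and 12.9% of all genes) was 16 with DESeq2 (14.9%), 4 in a fit on the 2 groups compared (11.4%), 15 with total counts only (12.3%), 53 with total counts without the 10 most abundant genes (19.5%), and 64 with a gene length trend removed (14.9%). By the stricter rule it was 2 under each of the last 2 alternatives. Without Ctrl replicates 1 and 2, an alternative chosen after seeing the data, it was 64 (13.2%), and 1 by the stricter rule. For ABpIF/+ against ABpIF/F by the stricter rule (59) it was 20 with total counts only, 16 without the 10 most abundant genes and 13 with the length trend removed (median 0.74). These scalings move all genes: the median of all genes shifted to -0.24 with total counts only and to -0.25 without the 10 most abundant genes in that comparison, and to 0.31 in ABpIF/F against Ctrl for the latter. Without the 10 most abundant genes in the total, the mean shares were 1.59% in Ctrl, 4.34% in ABpIF/+ and 2.34% in ABpIF/F. The cause of these shifts was not tested.

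With 1 mouse left out, ABpIF/+ against Ctrl had 73 to 76 members by the stricter rule and 77 to 78 at an adjusted p under 0.05 (median 1.40 to 1.62). ABpIF/F against Ctrl had 0 and 2 to 36 (median 0.27 to 0.49), and ABpIF/+ against ABpIF/F 35 to 70 and 74 to 78 (median 1.00 to 1.18). Of all genes, 5.79 to 6.32%, 3.8 to 7.26% and 1.8 to 2.66% rose by the stricter rule in these comparisons. At an adjusted p under 0.05, 15.2 to 17.4%, 7.78 to 13.6% and 6.35 to 11.0% rose. Mean shares of counts on the members ran from 1.17 to 1.31% in Ctrl, 2.90 to 3.13% in ABpIF/+ and 1.48 to 1.74% in ABpIF/F. Ratio tests against ABpIF/F could not pass an exact p of 0.05 with 2 ABpIF/F mice. No paired analysis was possible because replicate numbers only name the mice, and no animal is shared between groups. The alternative of using the second deposited table was not run, since its 10 comparable columns held the same counts.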
